A study of Mus musculus with 6 samples.

Results

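The Hox genes encode homeodomain transcription factors that lie in 4 clusters, HoxA, HoxB, HoxC and HoxD, and give cells a position along the body and limb axes. They were taken here as every gene whose current RefSeq symbol is Hoxa, Hoxb, Hoxc or Hoxd followed by digits only, and all 39 of 39 such genes were on the array, among 20659 genes named in all. They are grouped below by paralog number into anterior (1 to 3, 8 genes), central (4 to 8, 15 genes) and posterior (9 to 13, 16 genes).

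RNA of 6 samples was hybridised to 1 single-colour array each, with no replicates. Mouse embryonic fibroblasts (MEF), the mixed connective tissue cells grown from E13.5 embryos of ICR mice, were the starting cells, and fibroblasts described in the labels as neurons induced by Tet3 were taken at 1, 3, 5 and 7 dpi. Those cells had received adenoviral supernatants with polybrene on 2 successive days, and part of their medium was replaced by neuronal medium with forskolin on days 3 and 5 after the second infection. Primary neurons, also labelled E13.5, were the last group, and the labels used here do not name the brain region they came from. No sample received a virus without Tet3, so virus, Tet3, medium and time in culture cannot be told apart in any comparison with MEF. With 1 array a group there is no test between groups: a difference is given for a pair of arrays, and the number of arrays limits its precision.

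Within a cluster, Hox genes lie in the order of the body levels they mark, with genes of low number acting towards the head and genes of high number towards the tail and the tips of the limbs. Forebrain and midbrain lie in front of the Hox domain, whereas hindbrain, spinal cord and most connective tissue use a Hox code, which fibroblasts in culture are known to keep. Retinoic acid opens the clusters from their anterior end, Polycomb proteins keep unused members silent and Trithorax proteins keep used members active. Tet3 oxidises methylated cytosine in CpG dinucleotides.

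The promoters of 4 HoxD genes are shown because these genes, which lie in the same cluster, differed most between 3 and 7 dpi and in opposite directions, the posterior pair lower and the anterior and central pair higher. The sequences are from RefSeq (build GRCm38.p6), run 5′ to 3′ from 250 bases before to 50 bases after the gene's start, and have CpG dinucleotides in capitals.
Hoxd13, chr2:74667975-74668274, plus strand: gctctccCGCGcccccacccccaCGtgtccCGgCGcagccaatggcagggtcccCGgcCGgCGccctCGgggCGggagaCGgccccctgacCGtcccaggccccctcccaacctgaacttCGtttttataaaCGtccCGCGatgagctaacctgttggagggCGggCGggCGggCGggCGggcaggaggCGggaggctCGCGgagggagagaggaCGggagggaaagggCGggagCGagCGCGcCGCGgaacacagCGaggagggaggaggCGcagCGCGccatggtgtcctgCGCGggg
Hoxd12, chr2:74674763-74675062, plus strand: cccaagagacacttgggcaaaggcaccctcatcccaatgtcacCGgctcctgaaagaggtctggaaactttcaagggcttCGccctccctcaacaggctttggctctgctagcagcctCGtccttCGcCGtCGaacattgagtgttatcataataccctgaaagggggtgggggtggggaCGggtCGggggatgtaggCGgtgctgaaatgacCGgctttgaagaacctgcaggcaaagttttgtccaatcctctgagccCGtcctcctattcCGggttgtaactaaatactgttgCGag
Hoxd4, chr2:74721728-74722027, plus strand: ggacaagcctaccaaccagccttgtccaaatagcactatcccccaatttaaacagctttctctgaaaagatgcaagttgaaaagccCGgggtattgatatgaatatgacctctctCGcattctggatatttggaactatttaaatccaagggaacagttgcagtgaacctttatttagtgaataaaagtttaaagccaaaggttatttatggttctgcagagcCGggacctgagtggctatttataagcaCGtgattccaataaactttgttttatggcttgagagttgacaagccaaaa
Hoxd3, chr2:74711743-74712042, plus strand: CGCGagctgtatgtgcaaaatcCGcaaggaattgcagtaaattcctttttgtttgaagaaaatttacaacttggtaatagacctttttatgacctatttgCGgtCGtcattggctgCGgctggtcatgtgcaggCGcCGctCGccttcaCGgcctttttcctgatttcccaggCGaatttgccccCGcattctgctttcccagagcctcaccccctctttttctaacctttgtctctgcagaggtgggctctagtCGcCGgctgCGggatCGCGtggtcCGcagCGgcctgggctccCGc
The windows of Hoxd13 and Hoxd3 held 37 and 20 CpG, those of Hoxd12 and Hoxd4 held 13 and 4, so the number of CpG did not separate the pair that was lower from the pair that was higher. Over the 24 promoters listed for 22 of the Hox genes, the median was 14.5 CpG, with a range of 4 to 45, against 7 over 32851 promoters of all genes. CCAAT, read on both strands, was in 62.5% of the Hox windows and in 37.4% of all windows. TATAAA was in 16.7% and 13.6%, the PBX-HOX motif TGATNNAT in 16.7% and 8.85%, and the cyclic AMP response element TGACGTCA in 0 of the 24 Hox windows and in 1.79% of all windows. No methylation was measured, so these counts describe the sequence only.

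Levels are the authors' deposited log2 values, in which 0 is the 75th percentile of each array, and they are compared only within a gene, between arrays. A gene was called higher or lower at a 2-fold difference, which is 1 on the log2 scale. Where only 1 of the arrays compared was well above background, the other was put at the lowest level measured above background on its array, or at its own value where that was higher, and the difference is a bound, written "at least". The scanner software's error model gave a median error of 0.21 for a measured Hox difference from MEF at 1 dpi, which covers the array and not the culture. The 2 probes of Hoxb3 disagreed in sign against MEF at 1, 3 and 5 dpi. The probe brighter by mean over the 6 arrays gave 0.71, 0.89 and 1.00, and the other -0.32, -0.61 and -0.18. In MEF the first was the dimmer, at -1.98 against -0.82, and in neurons the brighter, at -4.17 against -8.79. MEF and 1 dpi were read in 1 scan and the other 4 arrays in a second, so for 3, 5 and 7 dpi and for neurons the scan and the difference from MEF cannot be told apart.

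The brightest Tet3 probe was 1.35, 1.96 and 2.80 higher than in MEF at 1, 3 and 5 dpi on the log2 scale but 0.30 higher at 7 dpi. Another Tet3 probe measured -6.99 in MEF, -1.995, -1.13 and 0.26 at 1, 3 and 5 dpi, and -7.00 at 7 dpi. That probe was not above background in MEF, at 7 dpi or in neurons. The remaining probe differed from MEF by -0.45, 0.32, 0.35 and 0.41 at 1, 3, 5 and 7 dpi, short of 2-fold. Why the probes differ was not tested. The 7 dpi sample is therefore called the array labelled 7 dpi. Fibroblast markers were above background on all arrays, 15 of 15. Their summed level, in units of each array's 75th percentile, was 645 in MEF, 557 to 774 on the Tet3 arrays and 106 in neurons. The summed level of neuron markers was 15.1 in MEF, 20.6, 27.5, 27.5 and 38.2 at 1, 3, 5 and 7 dpi, and 150 in neurons. Macrophage markers moved with time in every comparison with MEF: 13 of 13 were lower on each Tet3 array, and their summed level was 328 in MEF, 55.6, 19.1, 3.46 and 2.67 at 1, 3, 5 and 7 dpi, and 3.07 in neurons. At 7 dpi the macrophage markers Mrc1, Stab1 and Clec10a were not above background. Skeletal muscle markers were higher on the Tet3 arrays, 5, 7, 7 and 7 of 9 with a value at 1, 3, 5 and 7 dpi and 0 lower. The shares of all genes at those times were 5.39%, 16.3%, 17.9% and 17.0% higher and 5.98%, 9.82%, 8.21% and 6.84% lower. The summed level of the muscle markers was 4.02 in MEF, 13.7, 17.0, 21.4 and 18.5 at those times, and 3.62 in neurons. The muscle progenitor factor Myf5 was not above background on any array. The part of the macrophage and muscle markers in the Hox differences was not tested, and in bulk RNA fewer cells of a type and less RNA per cell cannot be told apart.

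The Hox genes of the fibroblasts were still measured on the Tet3 arrays. Of 39 members, 36 were well above background in MEF, 38 each at 1, 3 and 5 dpi and 35 at 7 dpi, and 34 were above it on all 5 of these arrays. Over those 34 genes the median range across the 5 arrays was 0.98 on the log2 scale, against 0.84 for 15860 genes of all kinds, and 52.9% of the Hox genes against 59.3% of all genes stayed within a 2-fold range. On all 4 Tet3 arrays, 20 members lay within 2-fold of MEF, 17 were at least 2-fold higher on 1 or more of them and 1, Hoxd3, was lower on 1. Hoxc13 was the only member at least 2-fold higher on all 4. These counts over 4 arrays were not made for all genes, so no share stands beside them. On single Tet3 arrays 5.39% to 17.9% of all genes were higher. The number of genes higher on any of the 4 can only be as large or larger.

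At 1 dpi, within the scan that also held MEF, 7 of 38 members with a value were at least 2-fold higher and 0 were lower, where 5.39% of all genes were higher and 5.98% lower. At 3 dpi 12 of 38 were higher and 1 lower, where 16.3% of all genes were higher and 9.82% lower. At 5 dpi 13 of 38 were higher and 0 lower, against 17.9% and 8.21% of all genes. On the array labelled 7 dpi 5 of 36 were higher and 0 lower, against 17.0% and 6.84%, so the share of higher members there was not above that of all genes. The medians of the Hox genes at 1, 3, 5 and 7 dpi were 0.49, 0.65, 0.78 and 0.50, and those of all genes 0.07, 0.20, 0.20 and 0.16. Centring each array on its median in place of its 75th percentile moved the medians of all genes at 3, 5 and 7 dpi to -0.10, -0.20 and -0.27 and those of the Hox genes to 0.35, 0.38 and 0.03.

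**Figure D1:**
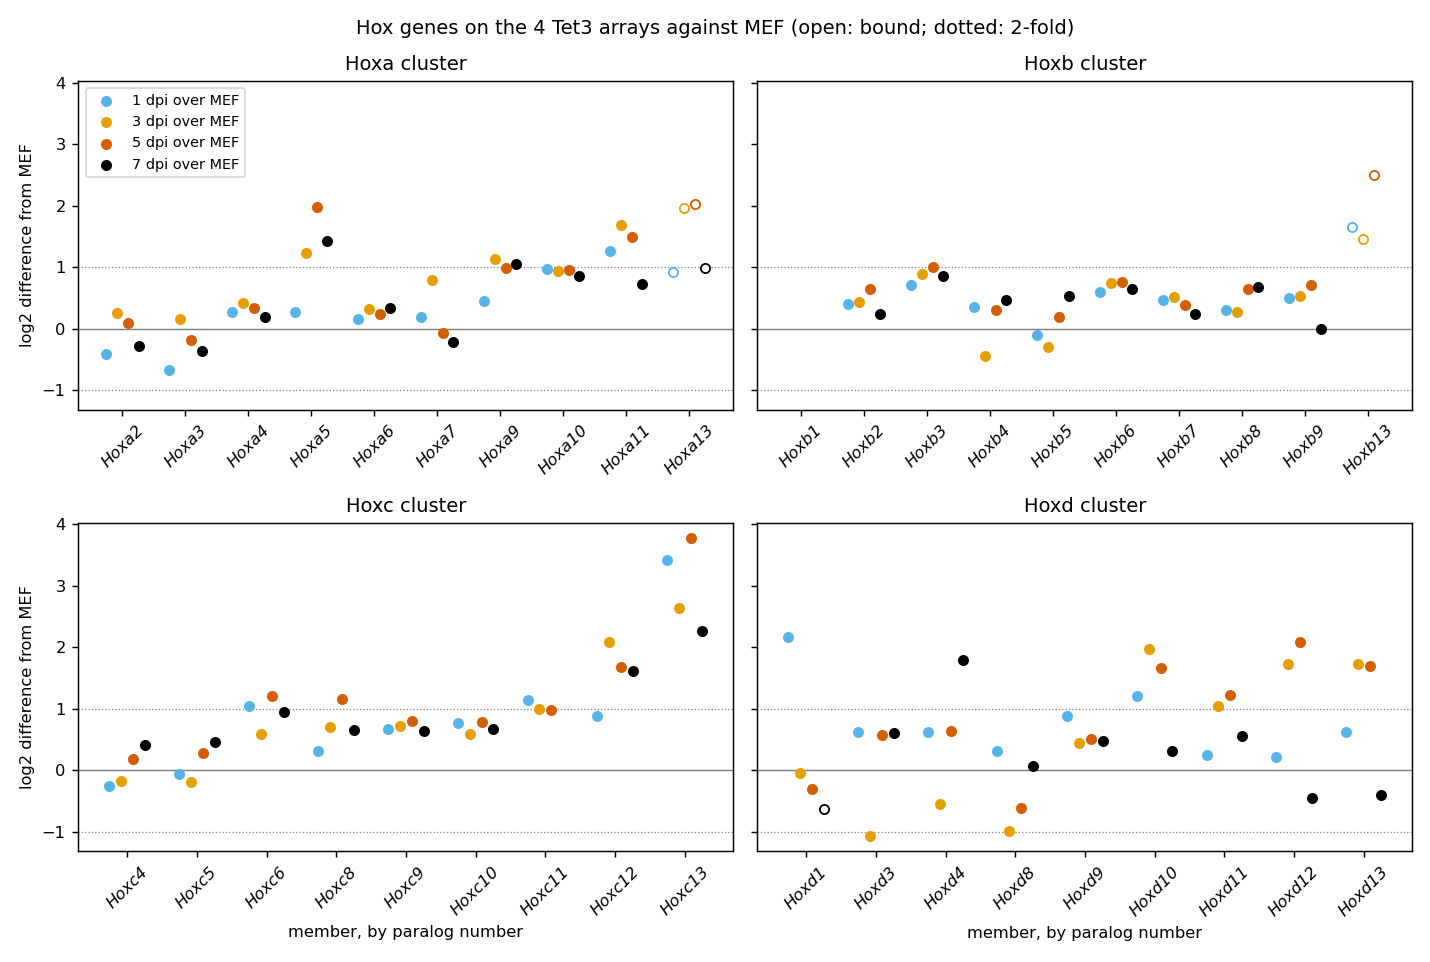
Log2 difference from MEF on the y axis for Hox genes on the x axis, in paralog order within the 4 clusters, with 1 point per Tet3 array (1, 3, 5 and 7 dpi); open points are bounds and dotted lines mark 2-fold. Of the plotted genes with a point above the upper dotted line, 11 are posterior, Hoxc13 is above it on all 4 arrays, and the 7 dpi points of Hoxd12 and Hoxd13 lie below 0.

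Of the 17 members that were higher on at least 1 Tet3 array, 11 were posterior, 4 central and 2 anterior. This count over the 4 Tet3 arrays was not made for all genes. At 3 dpi 10 of 16 posterior genes were at least 2-fold higher than in MEF, against 1 of 15 central and 1 of 7 anterior genes with a value, and the class medians were 1.29, 0.33 and 0.25. At 5 dpi 9 posterior, 3 central and 1 anterior gene were higher, with medians of 1.36, 0.34 and 0.58. At 1 dpi the counts were 5, 1 and 1 and the medians 0.89, 0.31 and 0.40, and at 7 dpi the counts were 3, 2 and 0 and the medians 0.65, 0.47 and 0.24. All 14 posterior genes above background in MEF lay above MEF at 1, 3 and 5 dpi, also under quantile normalization and under median centring. Hoxa13 and Hoxb13 were not above background in MEF, so a bound for them could only lie above it. With both arrays required to be above background, 8 and 7 of 14 posterior genes were at least 2-fold higher at 3 and 5 dpi. Under median centring the anterior median at 3 dpi was -0.05 and the central median at 5 dpi -0.07, and at 7 dpi the anterior median was -0.20 under median centring and -0.16 after quantile normalization, so those directions depend on the scaling.

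These counts stand beside the level of the genes, since dim genes of every kind were often higher on the later arrays. Of the 39 members, 9 were among the dimmest named genes when these were ranked by mean level over the 6 arrays and cut into 3 equal parts, 27 were in the middle part and 3 in the brightest. The 9 were the posterior Hoxa13, Hoxb13, Hoxc11, Hoxd9, Hoxd10 and Hoxd12, with Hoxa5, Hoxb1 and Hoxd1. Low level and posterior class thus overlap, and their parts in the posterior counts were not told apart. In the dimmest part of all genes, 31.6%, 35.9% and 41.8% of those with a value were higher at 3, 5 and 7 dpi, and of the Hox genes there 5 of 8, 5 of 8 and 1 of 6. In the middle part 16.6%, 18.1% and 16.7% of all genes were higher, and 6, 7 and 3 of 27 Hox genes.

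**Figure D2:**
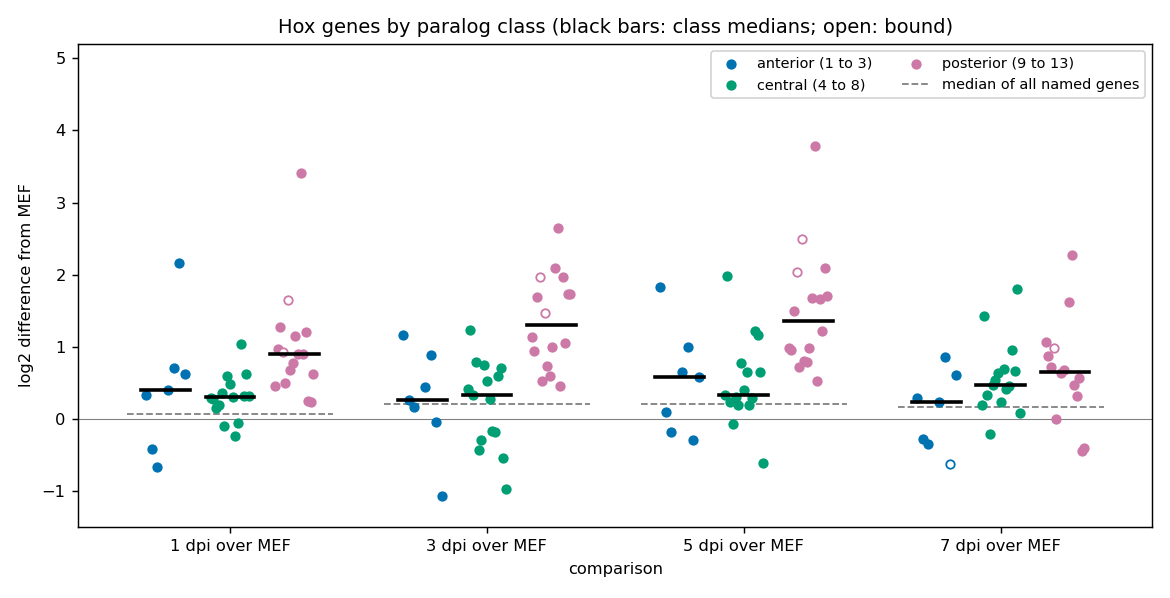
Log2 difference from MEF on the y axis for the Hox genes of each paralog class in the 4 Tet3 comparisons on the x axis; points are genes, open points bounds, black bars class medians and dashed lines the median of all named genes. The posterior points at 3 and 5 dpi all lie above 0, where the open ones could only lie. Their bars are at 1.29 and 1.36, while the other bars at those times lie between 0.25 and 0.58.

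Group 13 genes pattern the end of the trunk, the genitalia and the hands and feet. Hoxc13, which is needed for hair and nails, had log2 levels of -5.88 in MEF, -2.47, -3.24, -2.10 and -3.61 at 1, 3, 5 and 7 dpi, and -4.20 in neurons. MEF was the lowest of the 6, and the differences from MEF at 1, 3, 5 and 7 dpi were 3.41, 2.65, 3.78 and 2.27, with an array error of 0.28 for each. These are 10.6-fold, 6.25-fold, 13.8-fold and 4.82-fold. Hoxd13, the gene of digit formation, measured -2.14 in MEF, -1.52, -0.41, -0.44 and -2.55 at 1, 3, 5 and 7 dpi, and -8.45 in neurons, where it was not well above background. It was about 1.7 above MEF at 3 and 5 dpi, by 1.73 and 1.70, and lay 0.40 below MEF at 7 dpi. Hoxa13, needed for digits and the urogenital tract, measured -7.23 in MEF, -5.68, -4.63, -4.57 and -5.62 at 1, 3, 5 and 7 dpi, and -6.85 in neurons, and was not well above background on the arrays of MEF and neurons. The gene was therefore above background on the Tet3 arrays only, and its 2 probes gave bounds of at least 1.97 and 2.44 at 3 dpi and at least 2.03 and 2.12 at 5 dpi. Under normexp background correction the bound at 3 dpi was 0.82. Hoxb13, known from the tail bud and prostate, measured -8.73 in MEF, -4.94, -5.14, -4.10 and -6.21 at 1, 3, 5 and 7 dpi, and -6.88 in neurons, and was not well above background on the arrays of MEF, 7 dpi and neurons. It was at least 1.65, 1.46 and 2.50 higher than in MEF at 1, 3 and 5 dpi, and its 2-fold call at 3 dpi was lost under normexp and quantile normalization, with 0.69 and 0.75.

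Group 12 has 2 members, which lie next to the group 13 genes in their clusters. Hoxc12 measured -5.01 in MEF, -4.12, -2.92, -3.33 and -3.40 at 1, 3, 5 and 7 dpi, and -3.01 in neurons. Its differences from MEF were 0.89, 2.09, 1.68 and 1.61 at 1, 3, 5 and 7 dpi, but its 2-fold call at 7 dpi was lost under normexp and quantile normalization, with 0.998 and 0.96. Hoxd12 measured -4.92 in MEF, -4.69, -3.19, -2.83 and -5.37 at 1, 3, 5 and 7 dpi, and -6.46 in neurons, where it was not well above background. It was 1.73 and 2.09 higher than MEF at 3 and 5 dpi and 0.44 lower at 7 dpi, the last with an array error of 0.30.

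Group 11 genes pattern the forearm, lower leg and kidney. Hoxa11 measured -1.57 in MEF, -0.30, 0.13, -0.08 and -0.85 at 1, 3, 5 and 7 dpi, and -6.24 in neurons. It was 1.27, 1.69 and 1.49 higher at 1, 3 and 5 dpi and 0.72 higher at 7 dpi, with an array error of 0.06. Hoxd11 measured -3.60 in MEF, -3.36, -2.56, -2.38 and -3.04 at 1, 3, 5 and 7 dpi, and -1.14 in neurons. It was 1.05 and 1.22 higher than MEF at 3 and 5 dpi, a 2-fold call that was lost under normexp, quantile and median scaling, where the values were 0.71 to 0.97. Hoxc11 measured -6.12 in MEF, -4.97, -5.12, -5.13 and -6.23 at 1, 3, 5 and 7 dpi, and -8.52 in neurons, and was not well above background on the arrays of 7 dpi and neurons. It was 1.15 higher at 1 dpi and just short of 2-fold, at 1.00 and 0.99, at 3 and 5 dpi. Its call at 1 dpi was lost under normexp and quantile normalization, with 0.50 and 0.93.

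Group 10 genes set the lumbar level of trunk and spinal cord. Hoxd10, which also acts in lumbar motor neurons, measured -4.01 in MEF, -2.81, -2.04, -2.34 and -3.69 at 1, 3, 5 and 7 dpi, and -8.75 in neurons, where it was not well above background. It was 1.20, 1.97 and 1.67 higher at 1, 3 and 5 dpi and 0.32 higher at 7 dpi, and its value at 1 dpi was 0.90 under normexp. Hoxa10, a gene of the uterus and blood progenitors, measured -2.62 in MEF, -1.65, -1.68, -1.67 and -1.76 at 1, 3, 5 and 7 dpi, and -8.69 in neurons, where it was not well above background. Its 4 differences from MEF lay between 0.87 and 0.97 and none reached 2-fold. Hoxc10 measured -1.26 in MEF, -0.48, -0.67, -0.47 and -0.58 at 1, 3, 5 and 7 dpi, and -3.54 in neurons, and its differences lay between 0.59 and 0.79.

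Group 9 genes mark the lower thorax. Hoxa9, a regulator of blood progenitors, measured 1.21 in MEF, 1.66, 2.34, 2.19 and 2.27 at 1, 3, 5 and 7 dpi, and 2.41 in neurons. Its brighter probe was 1.13 and 1.06 higher than MEF at 3 and 7 dpi and 0.98 at 5 dpi, but its second probe was 0.30, 0.68 and 0.48 higher at 3, 5 and 7 dpi, so its 2-fold call rests on 1 probe. Under median centring its differences at 3 and 7 dpi were 0.83 and 0.62. Hoxb9 measured -1.14 in MEF, -0.64, -0.61, -0.43 and -1.15 at 1, 3, 5 and 7 dpi, and -5.09 in neurons. Hoxc9, which marks thoracic motor neurons, measured -0.70 in MEF, -0.02, 0.03, 0.10 and -0.06 at 1, 3, 5 and 7 dpi, and -8.75 in neurons, where it was not well above background. Hoxd9 measured -3.48 in MEF, -2.59, -3.03, -2.96 and -3.01 at 1, 3, 5 and 7 dpi, and -8.06 in neurons, where it was not well above background. None of these last 3 was 2-fold from MEF on a Tet3 array.

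Central genes set the level of the neck, forelimb and thorax, and 4 of 15 were at least 2-fold higher on at least 1 Tet3 array, a count not made for all genes. Hoxa5, needed for the lung and the neck skeleton, measured -5.68 in MEF, -5.40, -4.45, -3.70 and -4.26 at 1, 3, 5 and 7 dpi, and -8.51 in neurons, where it was not well above background. It was 1.23, 1.98 and 1.42 higher than MEF at 3, 5 and 7 dpi. Under normexp, quantile and median scaling its differences at 3 dpi were 0.42, 0.64 and 0.93 and at 7 dpi 0.64, 0.67 and 0.98. Hoxc6, a gene of the thorax and of the forelimb level of the spinal cord, measured 1.097 in MEF, 2.14, 1.68, 2.31 and 2.05 at 1, 3, 5 and 7 dpi, and -5.32 in neurons. It was 1.04 higher at 1 dpi and 1.22 at 5 dpi, and lay 0.59 and 0.96 above MEF at 3 and 7 dpi. Under median centring the values at 1 and 5 dpi were 0.97 and 0.81, and under normexp that at 1 dpi was 0.995. Hoxc8, which acts in brachial motor neurons, measured -3.28 in MEF, -2.97, -2.58, -2.12 and -2.62 at 1, 3, 5 and 7 dpi, and -6.09 in neurons. It was 1.16 higher at 5 dpi, and 0.76 to 0.93 under normexp, quantile and median scaling. Hoxd4, a gene of the hindbrain border and neck, measured -2.82 in MEF, -2.20, -3.36, -2.17 and -1.02 at 1, 3, 5 and 7 dpi, and -7.25 in neurons, where it was not well above background. It was the central gene with the largest difference at 7 dpi, 1.80 above MEF, and lay 0.55 below MEF at 3 dpi.

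The other 11 central genes were within 2-fold of MEF on all 4 Tet3 arrays. Hoxa7 measured 0.92 in MEF, 1.11, 1.71, 0.86 and 0.71 at 1, 3, 5 and 7 dpi, and -4.76 in neurons. Hoxd8 measured 1.41 in MEF, 1.72, 0.44, 0.80 and 1.49 at 1, 3, 5 and 7 dpi, and -8.62 in neurons, where it was not well above background. Both had levels above the 75th percentile of the array in MEF and on the Tet3 arrays. Hoxd8 lay 0.98 below MEF at 3 dpi, where Hoxa7 lay 0.79 above it.

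Hoxc4 measured 0.42 in MEF, 0.18, 0.25, 0.62 and 0.83 at 1, 3, 5 and 7 dpi, and -5.74 in neurons. Hoxc5 measured -2.61 in MEF, -2.67, -2.79, -2.33 and -2.15 at 1, 3, 5 and 7 dpi, and -6.29 in neurons. Neither was more than 0.46 from MEF on a Tet3 array. In HoxB, Hoxb4, a factor of blood stem cells, measured -0.24 in MEF, 0.11, -0.68, 0.06 and 0.23 at 1, 3, 5 and 7 dpi, and -8.81 in neurons, where it was not well above background. Hoxb5 measured -1.66 in MEF, -1.76, -1.96, -1.47 and -1.12 at 1, 3, 5 and 7 dpi, and -7.66 in neurons, where it was not well above background. These 2 genes were lowest at 3 dpi among the fibroblast arrays, while their neighbours Hoxb6, Hoxb7 and Hoxb8 were not. Hoxb6 measured -1.93 in MEF, -1.34, -1.18, -1.16 and -1.29 at 1, 3, 5 and 7 dpi, and -3.03 in neurons. Hoxb7 measured -1.10 in MEF, -0.62, -0.58, -0.70 and -0.86 at 1, 3, 5 and 7 dpi, and -4.59 in neurons. Hoxb8 measured -2.37 in MEF, -2.06, -2.10, -1.72 and -1.69 at 1, 3, 5 and 7 dpi, and -8.64 in neurons, where it was not well above background. No HoxB gene other than Hoxb13 was called on a Tet3 array. The largest measured difference of the cluster was 1.00 at 5 dpi, for the Hoxb3 probe brighter by mean over the 6 arrays.

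Hoxa4 and Hoxa6 were the members named for a level within 2-fold of MEF on all 5 other arrays. Hoxa4 measured -3.34 in MEF, -3.06, -2.92, -3.00 and -3.15 at 1, 3, 5 and 7 dpi, and -2.54 in neurons. Hoxa6 measured -3.56 in MEF, -3.40, -3.23, -3.32 and -3.23 at 1, 3, 5 and 7 dpi, and -2.96 in neurons. They lay 0.80 and 0.60 above MEF in neurons, where Hoxa3 and Hoxa7 were lower. Under quantile normalization and median centring these differences of Hoxa4 and Hoxa6 changed sign, with lowest values of -0.03 and -0.32.

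Anterior genes pattern the hindbrain and the pharyngeal arches and are the first to answer retinoic acid. Hoxd1, which acts in pain-sensing neurons, measured -5.12 in MEF, -2.96, -5.16, -5.41 and -5.75 at 1, 3, 5 and 7 dpi, and -7.68 in neurons, and was not well above background on the arrays of 7 dpi and neurons. It was 2.16 higher at 1 dpi, which is 4.47-fold with an array error of 0.25, and this height was not seen on any later array. Hoxd3 measured -2.39 in MEF, -1.77, -3.46, -1.81 and -1.78 at 1, 3, 5 and 7 dpi, and -6.40 in neurons, where it was not well above background. It was 0.62 higher at 1 dpi and 1.07 lower at 3 dpi, and 0.58 and 0.61 higher at 5 and 7 dpi. Under normexp its difference at 3 dpi was -0.86, short of 2-fold.

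The remaining anterior genes stayed within 2-fold of MEF on the Tet3 arrays. Hoxa2, which sets the identity of the second pharyngeal arch, measured -3.05 in MEF, -3.46, -2.80, -2.95 and -3.33 at 1, 3, 5 and 7 dpi, and -6.20 in neurons. Hoxa3, needed for thymus and parathyroid, measured -0.57 in MEF, -1.24, -0.41, -0.76 and -0.92 at 1, 3, 5 and 7 dpi, and -4.01 in neurons. Hoxb2, a hindbrain gene, measured 0.05 in MEF, 0.45, 0.49, 0.71 and 0.29 at 1, 3, 5 and 7 dpi, and -7.29 in neurons, where it was not well above background. Only Hoxa3 lay more than 0.65 below MEF, by 0.67 at 1 dpi. By its probe brighter in the mean over the 6 arrays, Hoxb3 measured -1.98 in MEF, -1.27, -1.09, -0.98 and -1.13 at 1, 3, 5 and 7 dpi, and -4.17 in neurons. Hoxb1, a retinoic acid target of the hindbrain, was not well above background on any of the 6 arrays, so its level has no value here.

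The comparison of 7 with 3 dpi lies within 1 scan, although part of the medium was switched between these times, and its largest Hox differences were in HoxD. Over all Hox genes 3 of 38 were higher and 4 lower, against 11.2% and 7.00% of all genes, so the counts themselves were near those of all genes. All 3 higher members and 3 of the 4 lower ones belong to HoxD. Hoxd4, Hoxd3 and Hoxd8 were 2.34, 1.68 and 1.05 higher at 7 dpi. Hoxd12, Hoxd13 and Hoxd10 were 2.17, 2.13 and 1.65 lower. Hoxd9, which lies between Hoxd8 and Hoxd10, differed by 0.02, and Hoxd11 was 0.48 lower. The fourth lower member was Hoxa7, at the 2-fold line with -1.003.

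The direction of these 6 HoxD differences was the same under each alternative tried, which was in part fixed in advance. Each of the 6 genes has 1 probe, well above background on both arrays. Averaging probes, leaving out the filter and requiring both arrays above background therefore could not change their values. Median centring moved all genes by the same amount. Over 7 alternatives, Hoxd4 was 2.04 to 2.35 higher, Hoxd3 1.40 to 1.68 and Hoxd8 0.91 to 1.06. Hoxd13 lay between -2.27 and -1.88, Hoxd12 between -2.34 and -1.16 and Hoxd10 between -1.83 and -1.27. In the steps between neighbouring times, Hoxd3 and Hoxd4 were 1.69 and 1.16 lower at 3 than at 1 dpi and 1.65 and 1.19 higher at 5 than at 3 dpi. Hoxd12 and Hoxd13 were within 0.36 of their 3 dpi levels at 5 dpi, and 2.53 and 2.11 lower at 7 than at 5 dpi. Hoxd4 was a further 1.15 higher at 7 than at 5 dpi, and Hoxd3 differed by 0.03. Hoxd3 thus differed at the step from 3 to 5 dpi, and Hoxd12 and Hoxd13 at the step from 5 to 7 dpi.

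By their brightest probes, the other clusters differed less between 7 and 3 dpi. In HoxC no difference reached 2-fold, and the values ran from 0.64 for Hoxc5 to a bound of -0.94 for Hoxc11. In HoxB, Hoxb4 and Hoxb5 were 0.90 and 0.84 higher at 7 dpi. In HoxA, Hoxa11 and Hoxa13 lay 0.97 and 0.99 below 3 dpi, and the second probe of Hoxa13 gave -1.63. By class the medians were 0.37 for central and -0.51 for posterior genes, and under quantile normalization and median centring they were 0.30 and -0.64, and 0.23 and -0.65.

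**Figure D3:**
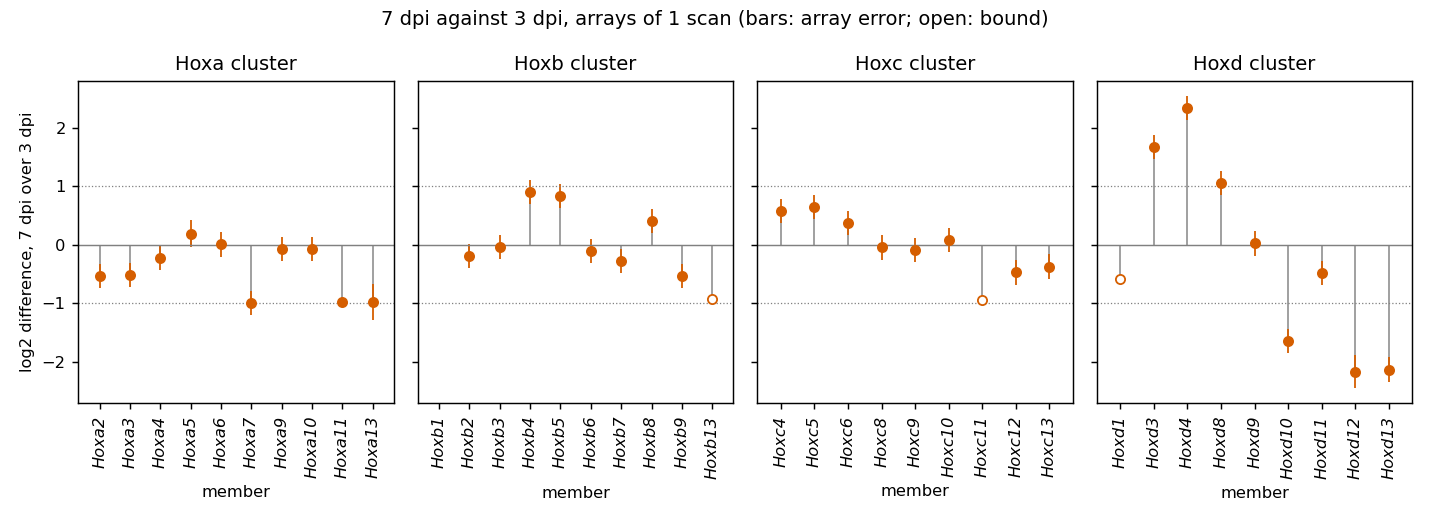
Log2 difference of 7 over 3 dpi on the y axis for Hox genes on the x axis, in the 4 clusters; bars are the array error of the scanner software, open points bounds and dotted lines 2-fold, with 1 probe, the brightest, for each gene. In HoxD the values run from 2.34 for Hoxd4 through 0.02 for Hoxd9 to about -2.1 for Hoxd12 and Hoxd13, and the other clusters stay within or at the dotted lines.

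Primary neurons had a different Hox set. Of 39 members, 19 were well above background (48.7%), where 89.4% of all named genes were. By cluster these were 7 of 11 in HoxA, 4 of 10 in HoxB, 7 of 9 in HoxC and 1 of 9 in HoxD, which was Hoxd11. Against MEF, 28 of 36 members with a value were at least 2-fold lower and 4 higher, where 16.1% of all genes were lower and 30.1% higher. The median was -3.34 for the Hox genes and 0.25 for all genes. Of these differences 17 were bounds, and over the 19 measured ones the median was -2.81. With median centring 30 Hox genes were lower and 2 higher, where 37.5% of all genes were lower and 16.2% higher.

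The largest differences reached every cluster. Hoxd8 was at least 7.97 lower in neurons on the log2 scale, which is at least 250-fold. Hoxb2 and Hoxb4 were at least 6.60 and 6.31 lower, and Hoxc9 at least 5.85. Of the measured members, Hoxc6 was 6.42 lower, Hoxc4 6.16 and Hoxa7 5.68, each with an array error of 0.26 or less. These 7 genes were at least 51.4-fold below MEF. In the posterior class 9 of 14 were lower, among them Hoxa11 by 4.67, Hoxd13 by at least 4.41 and Hoxb9 by 3.95. The 7 anterior genes with a value were all lower, from at least 1.43 for Hoxd1 to at least 6.60 for Hoxb2. Under normexp the differences of Hoxd1, Hoxd12 and Hoxb6 from MEF were -0.40, -0.57 and -0.86, short of 2-fold. The 2 probes of Hoxb3 gave -2.20 and a bound of -5.73.

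The 4 members that were higher in neurons were all posterior. Hoxd11 was 2.47 higher, which is 5.53-fold with an array error of 0.21, Hoxc12 2.00, Hoxc13 1.69 and Hoxa9 1.19. Hoxd11 was thus above background in neurons while all of its HoxD neighbours were not. Of these, Hoxd11 alone was above 2-fold in each alternative. Hoxc12 was 0.93 higher after quantile normalization, Hoxc13 lay 0.94, 0.38 and 0.89 above MEF under normexp, quantile and median scaling, and Hoxa9 was 0.39 higher under median centring and 0.41 by its second probe. The posterior median was -2.41 with bounds and 1.19 over the 7 posterior genes measured on both arrays, so its sign depends on whether genes below background count.

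**Figure D4:**
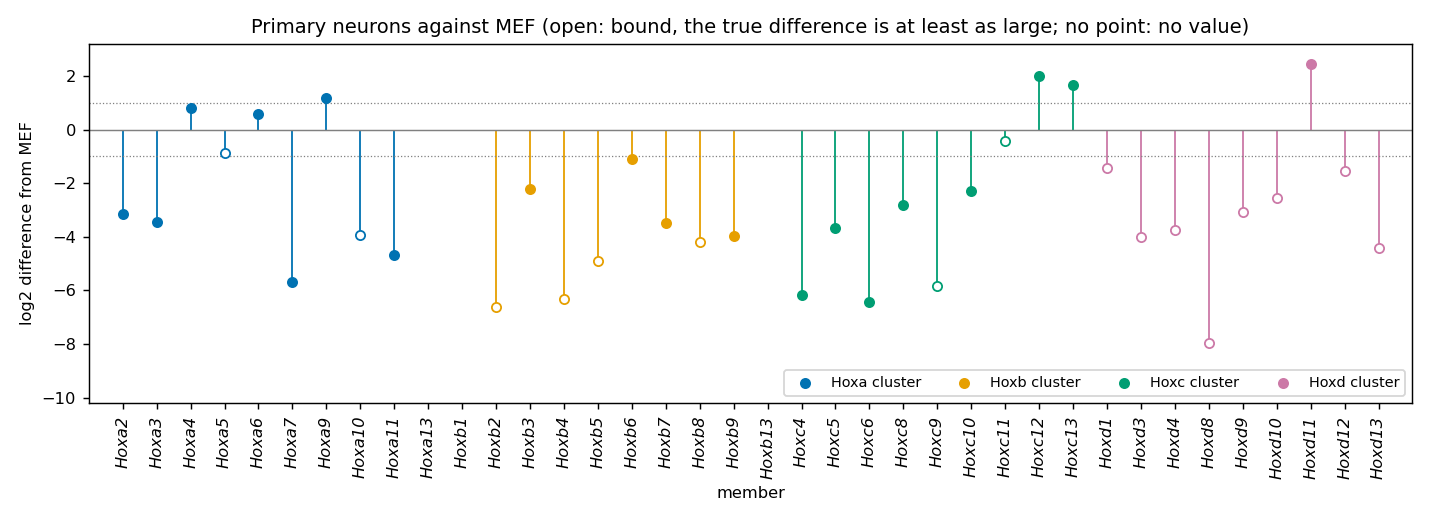
Log2 difference of primary neurons from MEF on the y axis for Hox genes on the x axis, coloured by cluster; open points are bounds, so the true difference is at least as large, and dotted lines mark 2-fold. The line for Hoxd8 is the longest at -7.97, and Hoxd11, Hoxc12, Hoxc13 and Hoxa9 are the points above the upper dotted line.

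Markers of brain regions in front of the Hox domain moved with this comparison. Of 14 forebrain and midbrain markers 11 were higher in neurons by 2-fold or more, including the cortical factor Neurod6 by 7.96, and their summed level was 0.673 in MEF and 23.7 in neurons. Of the 11 hindbrain and spinal cord markers with a value, 8 were higher in neurons and 1 lower, at -4.24. The summed level of this list was 5.61 in MEF and 2.80 in neurons. Fibroblast markers were lower, 14 of 15. These counts stand beside 30.1% of all genes higher and 16.1% lower in neurons than in MEF. The part of these markers in the Hox differences was not tested.

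On the array labelled 7 dpi, 31 of the 36 Hox genes with a value lay within 2-fold of MEF. Most genes of any kind did so as well, 13311 of 17487 named genes with a value. Against neurons 28 of 35 members with a value were higher and 1 lower, where 14.0% of all genes were higher and 19.5% lower, and the median was 3.54 against -0.05 for all genes. The lower member was Hoxd11, and 16 of the values were bounds. Of the Hox genes, 15 were above background in MEF and on all 4 Tet3 arrays and not in neurons, a pattern that 0.581% of all 20659 named genes had, among them Hoxa5, Hoxa10, Hoxb2, Hoxb4, Hoxb5, Hoxb8, Hoxc9, Hoxd3, Hoxd4, Hoxd8, Hoxd9, Hoxd10, Hoxd12 and Hoxd13. This comparison shares its 7 dpi array with that against MEF. Over the same times, neuron markers were higher than in MEF for 4 of 13, 9 of 14, 10 of 15 and 12 of 15 members with a value at 1, 3, 5 and 7 dpi. The shares of all genes that were higher were 5.39%, 16.3%, 17.9% and 17.0%.

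Hox proteins bind DNA with the TALE cofactors of the Pbx, Meis and Pknox families, and all 9 were above background on every array. At 1, 3, 5 and 7 dpi 0, 2, 3 and 2 of them were at least 2-fold higher than in MEF and 0 lower, where 5.39%, 16.3%, 17.9% and 17.0% of all genes were higher, so 2 of 9 is near that share. Pknox2 was 1.76 higher at 5 dpi and Pbx4 1.48 at 3 dpi. In neurons 3 were higher and 4 lower, beside 30.1% and 16.1% of all genes, with Pbx4 3.33 higher and Pbx3, Meis3 and Meis1 2.38, 2.14 and 2.08 lower.

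Genes of retinoic acid supply and of the direct activators of Hox genes differed from MEF in both directions. Of 22 genes, with 18 or 19 values on each array, 1, 3, 5 and 3 were higher and 5, 5, 3 and 2 lower at 1, 3, 5 and 7 dpi. Of all genes 5.39%, 16.3%, 17.9% and 17.0% were higher and 5.98%, 9.82%, 8.21% and 6.84% lower, so the higher counts at 3 and 7 dpi were near the share of all genes. Crabp1, a cytoplasmic retinoic acid binding protein, measured 0.85 in MEF, 3.23, 5.00, 3.54 and 0.45 at 1, 3, 5 and 7 dpi, and -2.08 in neurons. It was 4.14 higher than MEF at 3 dpi, its peak. Cyp26b1, the enzyme that breaks down retinoic acid, measured 2.51 in MEF, 1.16, -1.68, 0.92 and 2.77 at 1, 3, 5 and 7 dpi, and -0.13 in neurons. It was 4.20 lower at 3 dpi, its lowest array, and 0.25 higher at 7 dpi. Rarb, a retinoic acid receptor and itself a target of retinoic acid, measured -0.75 in MEF, -1.09, -3.47, 0.35 and 0.84 at 1, 3, 5 and 7 dpi, and -0.67 in neurons. It was 2.72 lower at 3 dpi and 1.104 and 1.58 higher at 5 and 7 dpi. Hoxd3, Hoxd4 and Hoxd8 also had their lowest fibroblast level at 3 dpi, and whether these genes are linked was not tested. Cdx2 and Cdx4, the caudal activators of posterior Hox genes, were not above background on any array. Cdx1 lay within 0.32 of MEF on the Tet3 arrays. Aldh1a2, which makes retinoic acid, was 1.13, 1.40 and 1.57 higher at 3, 5 and 7 dpi, and the receptor gene Rarg lay within 0.23 of MEF on the Tet3 arrays and was 3.04 lower in neurons. Rarb, Aldh1a2 and the Cdx genes are named for their roles and were chosen after their values were seen.

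**Figure D5:**
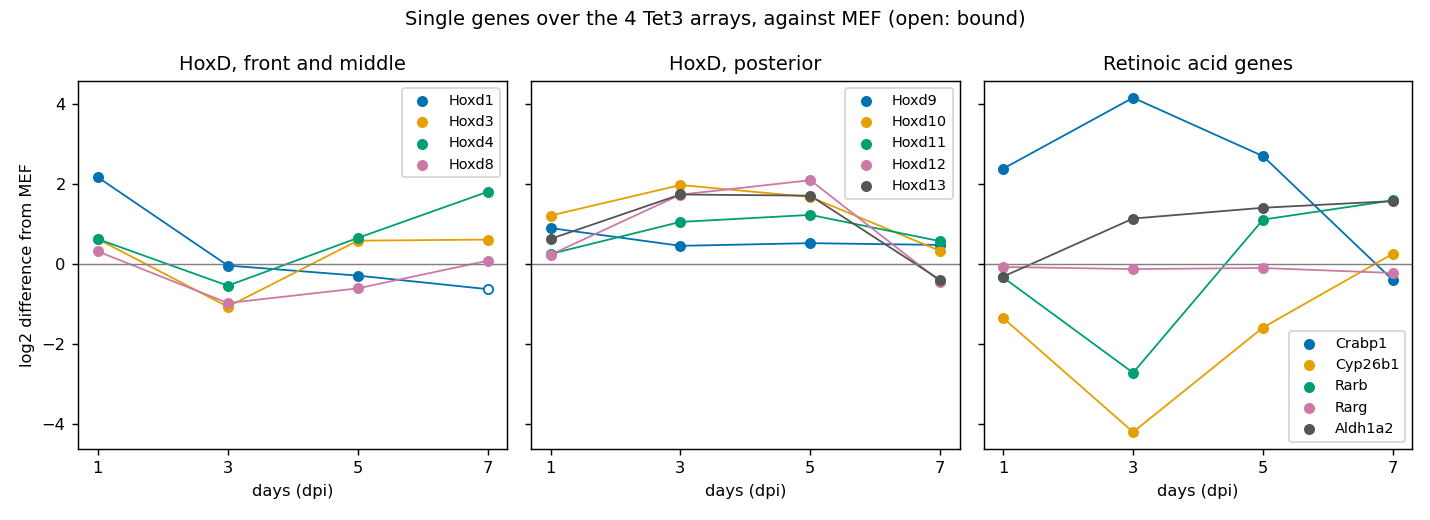
Log2 difference from MEF on the y axis against dpi on the x axis for HoxD genes of the anterior and central classes (left), posterior HoxD genes (middle) and retinoic acid genes (right); open points are bounds and lines join the arrays of a gene. Hoxd3, Hoxd4 and Hoxd8 are lowest at 3 dpi, Hoxd10 to Hoxd13 are at 1.05 or more at 3 and 5 dpi and at 0.57 or less at 7 dpi, and Crabp1 peaks at 3 dpi where Cyp26b1 and Rarb are lowest.

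The chromatin regulators of the clusters differed less. All 22 Polycomb and H3K27 demethylase genes were above background on every array. At most 1 of them was higher and at most 2 lower than in MEF on each Tet3 array, with medians of -0.12, -0.27, 0.13 and 0.02, where 5.39% to 17.9% of all genes were higher and 5.98% to 9.82% lower. Cbx7, a chromobox subunit that reads H3K27 methylation, was 1.31, 1.82, 2.01 and 1.69 lower at 1, 3, 5 and 7 dpi. The H3K27 demethylase Kdm6b was 1.13 higher at 5 dpi. Of 10 Trithorax genes, the only call on a Tet3 array was Kmt2c, 1.09 lower at 3 dpi. Whether the transcript levels of these regulators bear on the Hox genes was not tested.

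Of the noncoding transcripts of the clusters looked for, 2 were on the array. Hoxa11os, antisense to Hoxa11, measured -2.46 in MEF, -1.20, -0.82, -0.98 and -1.65 at 1, 3, 5 and 7 dpi, and -3.51 in neurons. It was 1.26, 1.64, 1.48 and 0.81 higher than MEF at 1, 3, 5 and 7 dpi, beside 1.27, 1.69, 1.49 and 0.72 for Hoxa11. Whether these probes tell the strands apart was not tested, so the values of this pair may share signal. Hoxd3os1 measured -5.18 in MEF, -4.71, -5.39, -5.14 and -3.98 at 1, 3, 5 and 7 dpi, and -8.54 in neurons, where it was not well above background. It was 1.20 higher at 7 dpi, and within 0.47 of MEF at the earlier times.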

How the data were processed

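Gene expression was measured in 6 samples on 1 Agilent mouse array each. Per the submitters' processing notes, the scans were read with Agilent Feature Extraction, version 11.0.1.1. The log2 values are those of the authors' deposited series table, in which 0 is each array's 75th percentile; the step that made this scale is not stated in the labels. They correlated with log2 of the deposited processed intensity values at r of 0.99999 on each array. Those intensity files also gave the background flags and errors, and no spot was saturated.

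Probes were named through their RefSeq accession (27234 of 39429), and the brightest probe of a gene was used; 43 probes stood for 39 Hox genes. Groups were compared by differences with no test. A probe was well above background where at least 0.5 of its spots were. Members given with all values were those 2-fold from MEF on any array or within 2-fold throughout; of other lists, up to 4 genes with the largest differences. A few such genes are not reported here. Members and lists were chosen with earlier results of these data known. Alternatives were scanner values, normexp (limma 3.58.1, offset 50, median signals), quantile normalization, median centring, a 4-fold threshold, the mean of a gene's probes, no filter on dim probes, and both arrays required to be above background. The calling was tested on simulated data.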

Additional observations from a re-analysis of the deposited data

Results flagged for a closer look

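Of the Hox genes, 11 lay on opposite sides of MEF on different Tet3 arrays by more than their array error. In 5 of them, all in HoxD, the difference was 2-fold on at least 1 array, and with 1 array a time none of these differences between times was tested. The other 6, among them Hoxb4 at 0.47 at 7 dpi and -0.43 at 3 dpi, stayed within 2-fold of MEF, and 1 of these is also in HoxD. Hoxd1 was 2.16 higher at 1 dpi and had a bound of -0.63 at 7 dpi, where it was not well above background. Hoxd3 was 0.62 higher at 1 dpi and lay at -1.07 at 3 dpi. Hoxd4 was 1.80 higher at 7 dpi and lay at -0.55 at 3 dpi. Hoxd12 was 2.09 higher at 5 dpi and lay at -0.44 at 7 dpi. Hoxd13 was 1.73 higher at 3 dpi and lay at -0.40 at 7 dpi. All values are against the same MEF array, which was in the scan of the 1 dpi array and not in that of the later arrays.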

How the results depend on the processing

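Over 8 alternatives, 25 main Hox counts and medians gave 191 values. Of these, 143 stayed within the limits set for them, 48 moved and 0 medians changed direction. The anterior and central medians are not among the 25, and some of them changed sign under median centring or quantile normalization, as given above. Of the 77 single Hox differences that were 2-fold in the comparisons other than 7 dpi over neurons, 0 changed sign in 519 recomputed values, and 50 of these values were no longer 2-fold. Of the 147 smaller ones, 33 changed sign under at least 1 alternative, in 47 of 1021 values. Much of the 0 among the 77 was fixed in advance. A bound in the opposite direction was left without a value, and genes with 1 probe keep their value when probes are averaged. Median centring moved all genes of a comparison alike, by less than 2-fold. The cause of each move was not tested.

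With normexp, 4, 7 and 3 Hox genes were higher at 1, 3 and 7 dpi than in MEF, and 0 were lower at 3 dpi. The medians were -1.996 for neurons over MEF, 2.46 for 7 dpi over neurons, and 0.84 and 1.00 for posterior genes at 3 and 5 dpi. With quantile normalization, 1 was lower at 5 dpi and 2 at 7 dpi, 2 were higher in neurons and 8 lower at 7 than at 3 dpi. The medians were 0.22 at 7 dpi, -4.42 in neurons, 4.43 for 7 dpi over neurons, and 0.95 and 1.05 for posterior genes. With median centring, 2, 1 and 1 were lower at 3, 5 and 7 dpi, 3 higher at 7 dpi, 2 higher in neurons and 9 lower at 7 than at 3 dpi. The medians were 0.35, 0.38 and 0.033 at 3, 5 and 7 dpi, -4.13 in neurons, 3.905 for 7 dpi over neurons, and 1.00 and 0.95 for posterior genes. With both arrays above background, 13 were lower in neurons (median -2.81) and 13 higher at 7 dpi than in neurons (median 3.05), and the posterior medians were 1.09 and 1.105. With no filter the median of 7 dpi over neurons was 3.94. With a 4-fold threshold, 2, 2, 4 and 1 were higher at 1, 3, 5 and 7 dpi, 1 in neurons and 1 at 7 over 3 dpi. At 4-fold, 0 were lower at 3 dpi, 2 at 7 over 3 dpi and 0 at 7 dpi over neurons, and 2 and 4 posterior genes were higher at 3 and 5 dpi.

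Among all genes, 5657 were higher and 3026 lower in neurons than in MEF, against 3270 and 3815 after quantile normalization and 2952 and 6845 after median centring. Signal over background limits the dim members: Hoxa13, Hoxb13, Hoxc11 and Hoxd1 were each below background on at least 1 fibroblast array, and a bound says nothing of how far below. With 1 array a group, no replicate could be left out. No paired analysis was possible because each group has 1 array.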

Other observations

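Transcription factors that mark positions in limb and body wall, a code that works beside the Hox genes, were measured for 22 genes. At 3 and 5 dpi 7 of them were at least 2-fold higher than in MEF and 1 was lower, and at 7 dpi 2 were higher and 2 lower. Of all genes 16.3%, 17.9% and 17.0% were higher and 9.82%, 8.21% and 6.84% lower at those times. In neurons 3 of the factors were higher and 14 lower, beside 30.1% and 16.1% of all genes. Tbx4, the hindlimb factor, was 2.17 and 2.00 higher at 3 and 5 dpi and 0.64 at 7 dpi, beside Hoxd10, Hoxd11, Hoxd12 and Hoxd13, which were also lower at 7 than at 5 dpi, while Hoxd9 differed by less than its array error. Pax1, a factor of the vertebral column and shoulder blade, was 3.81 and 3.61 lower than MEF at 5 and 7 dpi. Prrx1, a general limb mesenchyme factor, stayed within 0.30 of MEF on the Tet3 arrays and was 4.08 lower in neurons. Tbx15 and Pitx1, factors of the limb skeleton and the hindlimb, were 7.47 and 6.41 lower in neurons.

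The genes that flank the clusters were looked at for a change that runs past the Hox genes. Of 13 on the array, 1, 2, 2 and 2 were higher and 0, 1, 1 and 1 lower at 1, 3, 5 and 7 dpi, so the higher counts were near the shares of all genes, 5.39%, 16.3%, 17.9% and 17.0%. Evx2, a homeobox gene next to Hoxd13, was 1.53, 1.54 and 1.65 higher than MEF at 3, 5 and 7 dpi, so it was still higher at 7 dpi, when Hoxd13 was not. On the other side of HoxD, Mtx2 lay within 0.31 of MEF on the Tet3 arrays. Skap2, beside HoxA, was 0.85, 1.03, 1.71 and 1.80 lower at 1, 3, 5 and 7 dpi. Ttll6, beside HoxB, was 3.53 higher at 5 dpi.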
